A study of Mus musculus with 24 samples.

Results

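Brown fat takes up and breaks down large amounts of glucose when mice are kept in the cold, and the genes followed here are 10 that encode the entry of glucose and the controlled steps of its breakdown. They are the glucose transporters Slc2a1 and Slc2a4, the hexokinases Hk1 and Hk2, the phosphofructokinases Pfkp, Pfkl and Pfkm, the pyruvate kinase gene Pkm, and the lactate dehydrogenases Ldha and Ldhb. They were found by matching the Ensembl identifiers of the count table to gene symbols, and all 10 were among its 12615 genes and among the 12485 that passed a filter on low counts. RNA came from the brown fat of 24 mice in 4 groups of 6. All mice carried loxP-flanked alleles of TBLR1 (gene Tbl1xr1) and TBL1 (gene Tbl1x), written TBLR1 fl/fl;TBL1 fl/fl, and all were given tamoxifen. The mice called BATdKO also carried Ucp1CreERT2, a tamoxifen-dependent Cre recombinase under the promoter of the brown fat gene Ucp1, and the mice called Cre- did not. Mice were raised at 22 °C. Treatment began 3 weeks after the last tamoxifen dose, either as 4 days at 30 °C or as 6 days at 8 °C after 1 day each at 18, 16 and 12 °C. The labels describe females. The published methods differ from the labels in the sex, the time in the cold and the age, so groups and times here follow the labels and no age is given. TBLR1 and TBL1 are exchange factors of nuclear corepressor complexes, and the comparisons ask how these genes' levels differ with temperature and with the presence of the Cre.

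GLUT1 (Slc2a1) carries glucose into most cells without insulin, whereas GLUT4 (Slc2a4) is stored in vesicles that insulin sends to the surface of fat and muscle cells. Hexokinase traps the sugar as glucose 6-phosphate, phosphofructokinase makes the committed step to fructose 1,6-bisphosphate, pyruvate kinase makes pyruvate, and lactate dehydrogenase interconverts pyruvate and lactate. In brown fat in the cold, norepinephrine raises glucose uptake, and the carbon serves oxidation, lactate release, glycerol 3-phosphate and new fatty acids.

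Each library holds tags from the 3′ ends of mRNAs, with 1 forward read per tag, so a level is given as CPM, the counts scaled to a fixed library total, with no division by transcript length. Libraries held 699703 to 11527643 counts, and the lowest of the 24 was Cre- 30 °C m4. Mice are called m1 to m6 within a group, a number that pairs nothing between groups. All libraries of 1 temperature carried 1 run of consecutive library numbers, so the temperature and this run cannot be told apart. Treatment was also longer for the 8 °C mice, so the time since tamoxifen cannot be told apart from temperature either. All 11 brown adipocyte markers were detected in each group. Their summed share was 0.0765% to 0.240% of counts in Cre- 30 °C and 0.129% to 0.207% in BATdKO 30 °C. At 8 °C it was 0.235% to 0.390% in Cre- and 0.261% to 0.348% in BATdKO mice. This share includes Ucp1 itself, at 28.9 to 548 CPM in Cre- 30 °C and 968 to 2076 CPM in Cre- 8 °C. In BATdKO mice Ucp1 had 84.7 to 412 CPM at 30 °C and 1331 to 2029 CPM at 8 °C. The 6 general adipocyte markers made up 0.0738% to 0.355% in Cre- 30 °C and 0.167% to 0.276% in Cre- 8 °C. They made up 0.114% to 0.410% in BATdKO 30 °C and 0.165% to 0.331% in BATdKO 8 °C. The part of these shares in the members' cold differences was not tested. All 9 hepatocyte markers were also abundant in every library, at 3.41% to 4.39% in Cre- 30 °C, 2.95% to 3.77% in BATdKO 30 °C, 2.99% to 3.91% in Cre- 8 °C and 2.78% to 4.00% in BATdKO 8 °C. Alb, which encodes serum albumin, stood at 6332 to 15049 CPM. Within groups this hepatocyte share ran against the level of several members over 24 libraries that share depth and tissue. Pearson r was -0.70 for both Slc2a4 and Pkm, -0.67 for Pfkp, -0.60 for Ldhb, -0.59 for Pfkl and -0.53 for Hk2. For the other members it lay between -0.28 (Hk1) and -0.03 (Slc2a1). The 2 targeted genes went against their labels. Tbl1xr1 was at 33.7 to 44.3 CPM in the 8 °C libraries labelled BATdKO and at 18.2 to 24.6 CPM in those labelled Cre- (log2 difference 0.92 ± 0.17 SE, edgeR adjusted p = 0.00348), and Tbl1x differed by 0.39 ± 0.10 (adjusted p = 0.0633). Where these tags lie outside the deleted exons they cannot check the deletion, so groups are named as labelled throughout. At 30 °C the library labelled Cre- m6 had 38.6 CPM of Tbl1xr1 and 548 CPM of Ucp1. The library labelled BATdKO m6 had 17.0 and 84.7. Each stood apart from its own group, so all comparisons were also run without both. Calls and signs of members that changed are given at the end.

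The members lie on 8 chromosomes of the mouse build GRCm38. Hk2 is at chr6:82725025-82774454 (- strand), Hk1 at chr10:62268855-62379908 (- strand), Pfkl at chr10:77986947-78010083 (- strand), Pfkp at chr13:6579768-6648777 (- strand) and Pfkm at chr15:98092589-98132451 (+ strand). Slc2a1 is at chr4:119108711-119137983 (+ strand), Slc2a4 at chr11:69942539-69948188 (- strand), Pkm at chr9:59656368-59679375 (+ strand), Ldha at chr7:46841475-46855627 (+ strand) and Ldhb at chr6:142490249-142507957 (- strand). Exons of Hk1 overlap the antisense gene Hk1os on the other strand, as those of Slc2a1 overlap Gm12868, those of Pfkp overlap Pitrm1 and those of Pfkm overlap Senp1. On their own strand, Pfkm overlaps Gm26513 and Pkm overlaps Gm49759. The strand setting of the counting is not given in the sources used here, so reads in the overlaps cannot be assigned. The M1 and M2 forms of pyruvate kinase differ by an internal exon and are not told apart by 3′ tags, and Ldha has processed copies elsewhere in the genome that could take up reads.

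RefSeq promoter windows (GRCm38.p6, 250 bases before to 50 after a start) were on hand for 9 of the 10 genes, 15 windows in all. Slc2a4 had none. Of them 4 are shown, all from genes that rose in the cold in both genotypes: Hk2 at chr6:82774405-82774704 (- strand) and Ldha at chr7:46845554-46845853 (+ strand), which hold the letters ACGTG, and Pfkl at chr10:78009758-78010057 (- strand) and Pfkp at chr13:6648722-6649021 (- strand), which do not. Capitals mark ACGTG on either strand, so that CACGT is the same site read from the other strand, and CACGTG holds a site on each.
Hk2: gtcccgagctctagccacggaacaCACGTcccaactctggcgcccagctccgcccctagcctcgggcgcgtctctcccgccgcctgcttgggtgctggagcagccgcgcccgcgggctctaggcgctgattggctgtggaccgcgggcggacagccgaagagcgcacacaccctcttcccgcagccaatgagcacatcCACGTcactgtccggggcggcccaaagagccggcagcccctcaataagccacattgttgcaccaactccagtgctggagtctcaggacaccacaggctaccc
Ldha: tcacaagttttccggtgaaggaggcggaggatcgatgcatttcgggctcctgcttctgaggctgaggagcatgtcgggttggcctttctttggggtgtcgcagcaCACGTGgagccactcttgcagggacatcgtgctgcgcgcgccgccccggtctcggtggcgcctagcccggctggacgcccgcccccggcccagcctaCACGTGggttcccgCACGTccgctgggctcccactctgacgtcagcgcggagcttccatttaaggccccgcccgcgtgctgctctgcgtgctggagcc
Pfkl: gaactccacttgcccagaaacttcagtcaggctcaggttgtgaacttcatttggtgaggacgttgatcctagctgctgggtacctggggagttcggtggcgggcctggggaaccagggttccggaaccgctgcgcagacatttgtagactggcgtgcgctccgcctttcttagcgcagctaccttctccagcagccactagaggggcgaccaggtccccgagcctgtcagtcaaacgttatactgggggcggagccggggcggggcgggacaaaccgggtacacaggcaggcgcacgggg
Pfkp: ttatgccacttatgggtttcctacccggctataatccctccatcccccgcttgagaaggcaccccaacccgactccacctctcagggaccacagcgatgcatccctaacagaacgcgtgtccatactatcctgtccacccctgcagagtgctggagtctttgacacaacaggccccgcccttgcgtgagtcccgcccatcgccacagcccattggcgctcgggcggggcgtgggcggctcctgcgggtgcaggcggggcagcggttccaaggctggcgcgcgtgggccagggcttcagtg
ACGTG is the core of the hypoxia response element and CACGTG is an E-box, which holds it. Counting the start base as 0, Hk2 had ACGTG at -226 and -52, and Ldha had CACGTG at -145 and -48 with a further ACGTG at -34. Over all members, 7 of 15 windows, from 6 genes, held ACGTG, against 19.6% of 32851 windows of 300 bases in the table. CACGTG was in 2 of 15 against 7.15%, the cAMP response half-site TGACG in 4 of 15 against 20.8%, and the nuclear receptor half-site AGGTCA in 3 of 15 against 16.3%. A match of letters is a description only, and the windows of genes that rose in the cold both held and lacked the same letters.

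Most of the set was higher at 8 °C than at 30 °C in both genotypes. In Cre- mice 7 of 10 members were higher at 8 °C and 1 was lower, whereas 5.57% of all tested genes rose and 3.59% fell at an adjusted p under 0.1 (edgeR quasi-likelihood test with Benjamini-Hochberg adjustment over all tested genes, used throughout). In BATdKO mice 7 of 10 rose and 0 fell, against 3.76% and 3.31% of all genes. The median log2 difference over the members was 0.97 in Cre- and 0.88 in BATdKO mice, and over all tested genes it was -0.02 and -0.00. In Cre- mice 6 members, and in BATdKO mice 6, had every cold library above every 30 °C library, which 2.19% and 1.75% of all genes did. Fewer cells of a type and less RNA per cell cannot be told apart in these bulk samples.

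**Figure D1:**
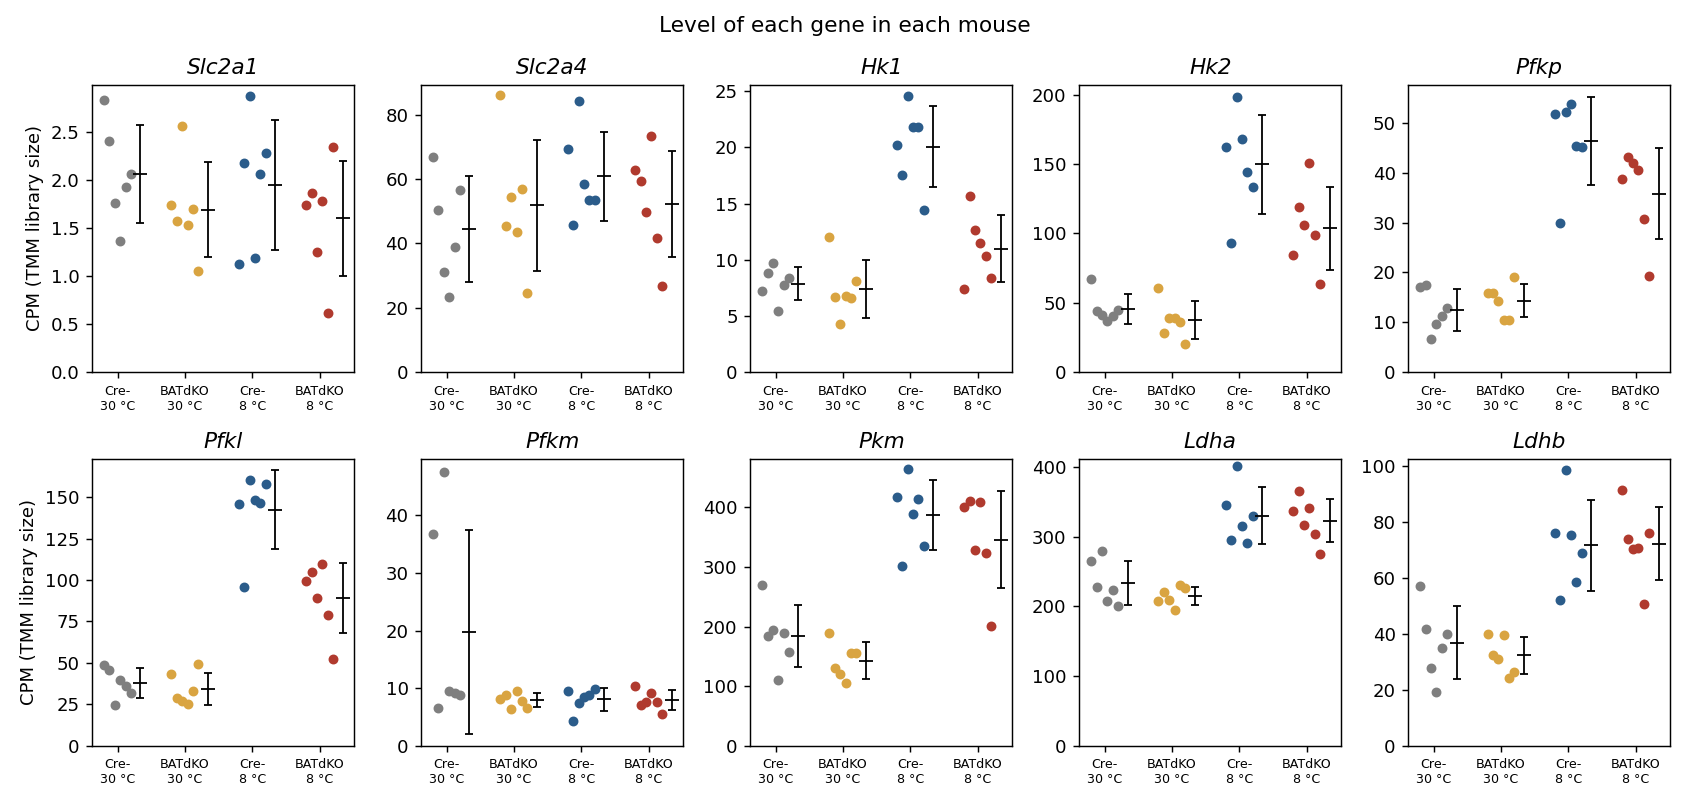
Level of each of the 10 genes in CPM for each mouse, with the 4 groups on the horizontal axis and the black bars giving mean ± SD of 6 mice. The 8 °C libraries stand above the 30 °C libraries for Hk2, Pfkp, Pfkl, Pkm and Ldha in both genotypes, and 2 Cre- 30 °C mice stand apart for Pfkm.

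The transporters did not pass the test in any comparison. Slc2a1 was scarce, from 0.616 to 2.88 CPM over all libraries, which is 1 to 36 counts, so only large differences could be seen. Its log2 difference with cold was -0.21 (95% interval -0.70 to 0.28) in Cre- and -0.05 (-0.60 to 0.50) in BATdKO mice. Slc2a4 was more abundant. Its lowest, median and highest levels were 23.2, 44.6 and 67.0 CPM in Cre- 30 °C, 45.8, 56.1 and 84.2 in Cre- 8 °C, 24.5, 49.9 and 86.1 in BATdKO 30 °C, and 26.8, 54.6 and 73.2 in BATdKO 8 °C. These ranges overlapped throughout, with a cold difference of 0.38 ± 0.24 (SE, adjusted p = 0.434) in Cre- and 0.02 ± 0.24 (adjusted p = 0.996) in BATdKO mice. The 95% intervals ran from -0.10 to 0.86 and from -0.46 to 0.49.

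Hexokinase II, the insulin- and cold-responsive form of muscle and fat, rose in both genotypes without overlap. Hk2 had a lowest, median and highest level of 36.9, 42.4 and 67.1 CPM in Cre- 30 °C and 93.2, 153 and 198 CPM in Cre- 8 °C, a log2 difference of 1.68 ± 0.21 (SE, n = 6 against 6 mice, edgeR adjusted p = 6.81e-06). In BATdKO mice it went from 20.4, 37.7 and 60.8 CPM to 63.8, 102 and 151 CPM, a difference of 1.49 ± 0.21 (adjusted p = 6.38e-05). No cold library fell into the range of its own 30 °C group. At 8 °C the BATdKO mean of 104 ± 29.9 CPM (SD) was below the Cre- mean of 150 ± 35.6, but the ranges overlapped and the difference of -0.52 ± 0.21 had an adjusted p of 0.328.

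Hexokinase I, the form that most tissues express, had the smallest adjusted p of the members between genotypes at 8 °C. Hk1 had 5.47, 8.03 and 9.73 CPM as lowest, median and highest in Cre- 30 °C and 14.4, 21.0 and 24.6 CPM in Cre- 8 °C, which is 2.44-fold higher (log2 1.28 ± 0.18, edgeR adjusted p = 2.25e-05) with no overlap. In BATdKO mice it had 4.28, 6.73 and 12.0 CPM at 30 °C and 7.41, 10.9 and 15.6 CPM at 8 °C, a 1.53-fold difference with overlap (log2 0.62 ± 0.19, adjusted p = 0.0568). This call was lost without any 1 of BATdKO 30 °C m2, m3 or m5 or BATdKO 8 °C m2, m3 or m4, where the log2 difference went as low as 0.47. At 8 °C, Hk1 was 1.76-fold lower in BATdKO than in Cre- mice (log2 -0.82 ± 0.17, adjusted p = 0.011), with only the highest BATdKO mouse, at 15.6 CPM, inside the Cre- range. It stayed past the threshold without each single mouse (-0.96 to -0.75) and with the hepatocyte markers as a covariate (-0.72, adjusted p = 0.0396). At 30 °C its genotype difference was -0.15 ± 0.19 (adjusted p = 0.862).

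Of the phosphofructokinases, the liver form Pfkl and the platelet form Pfkp rose in both genotypes. Pfkl had 24.3, 37.8 and 48.9 CPM as lowest, median and highest in Cre- 30 °C and 95.7, 148 and 160 CPM in Cre- 8 °C, 3.77-fold higher (log2 1.91 ± 0.19, edgeR adjusted p = 1.52e-07). In BATdKO mice it went from 25.4, 30.9 and 49.6 CPM to 52.2, 94.3 and 109 CPM, 2.59-fold higher (log2 1.37 ± 0.18, adjusted p = 3.11e-05). Neither genotype's cold range touched its 30 °C range. Pfkp had 6.62, 12.1 and 17.4 CPM in Cre- 30 °C and 29.9, 48.5 and 53.9 CPM in Cre- 8 °C (log2 1.83 ± 0.21, adjusted p = 1.26e-06), and 10.5, 15.1 and 19.1 CPM against 19.4, 39.7 and 43.2 CPM in BATdKO mice (1.32 ± 0.20, adjusted p = 0.000161). It too did not overlap between temperatures in either genotype.

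At 8 °C, Pfkl was 1.60-fold lower in BATdKO than in Cre- mice (log2 -0.68 ± 0.18, edgeR adjusted p = 0.058). The Cre- mouse m2, at 95.7 CPM, lay inside the BATdKO range, and the other 5 Cre- mice, from 146 to 160 CPM, lay above all BATdKO mice. The call was lost without any 1 of Cre- 8 °C m1, m3, m4, m5 or m6 or BATdKO 8 °C m3, m5 or m6, with robust dispersions (adjusted p = 0.118) and with muscle markers as a covariate (adjusted p = 0.116), while the log2 difference stayed between -0.77 and -0.56 without single mice and between -0.68 and -0.52 over the alternatives. The Pfkp difference at 8 °C was -0.37 ± 0.19 (adjusted p = 0.583). With Hk1 and Pfkl, 2 of 10 members were lower in BATdKO at 8 °C and 0 higher, against 1.12% and 0.697% of all tested genes. None of the 10 had every BATdKO library below every Cre- library, which 0.873% of all genes did.

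The muscle form Pfkm was the exception to the rise. It had 36.8 and 47.6 CPM in Cre- 30 °C m1 and m3 but 6.58 to 9.57 CPM in the other 4 mice of that group, 4.35 to 9.87 CPM in Cre- 8 °C, 6.41 to 9.51 CPM in BATdKO 30 °C and 5.48 to 10.5 CPM in BATdKO 8 °C. Its fall with cold in Cre- mice (log2 -1.36 ± 0.36, edgeR adjusted p = 0.0189) thus came from 2 libraries, and without both the difference was -0.02. Without Cre- 30 °C m3 alone it was -0.91 (adjusted p = 0.103). These libraries also held the most skeletal muscle marker counts, 0.6997% and 1.48% of all counts, against at most 0.321% in any other library. The list had 16 of 18 markers in the table, all detected in each group, and its share ran from 0.0044% to 1.48% in Cre- 30 °C, 0.00698% to 0.144% in BATdKO 30 °C, 0.00338% to 0.321% in Cre- 8 °C and 0.00399% to 0.0302% in BATdKO 8 °C. Pearson r of log2 Pfkm with the log2 muscle share was 0.70 over 24 libraries and 0.75 within groups. Both values of r include Cre- 30 °C m1 and m3, and neither was taken without them. With the muscle markers as a covariate the Cre- difference was -0.99 (adjusted p = 0.00988).

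**Figure D2:**
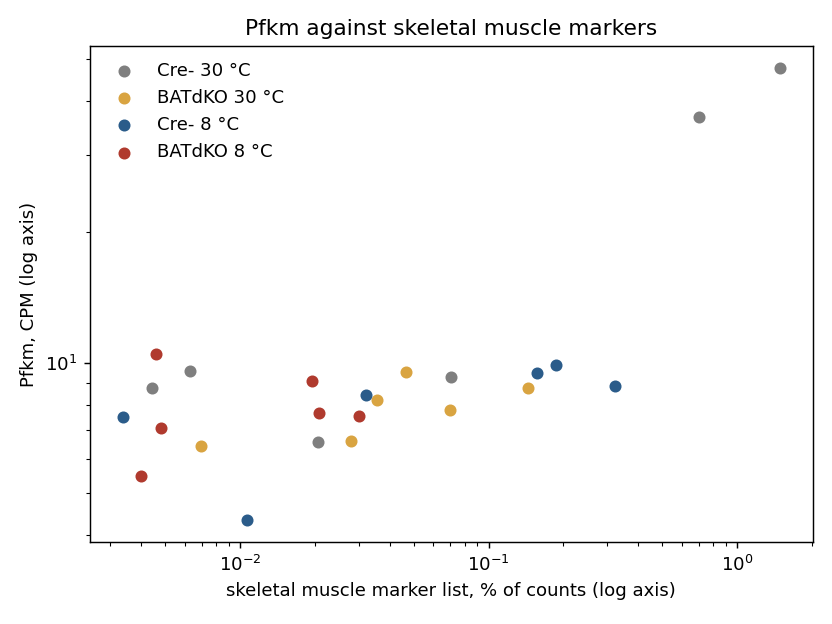
Pfkm in CPM against the share of counts from the skeletal muscle marker list, both on log axes, with 1 point per library and the 4 groups in colour. The 2 points at the upper right, at 0.6997% and 1.48% of counts, are the Cre- 30 °C mice m1 and m3.

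Shares within a library do not depend on scaling between libraries. Pfkl made up 70.4% to 74.1% of the phosphofructokinase counts in Cre- 8 °C and 64.3% to 68.8% in BATdKO 8 °C, with no overlap, while Pfkp made up 21.2% to 25.6% and 25.1% to 30.2%. Pfkm made up 3.35% to 4.64% and 4.57% to 7.11%. At 8 °C a single library's share rests on 341 to 1948 family counts, and its Wilson 95% interval reached from 61.7% to 71.6% for Pfkl in the shallowest, BATdKO 8 °C m1. These intervals overlap between many libraries of the 2 genotypes and cover counting error only. At 30 °C the Pfkl share was 31.0% to 67.4% in Cre- and 54.1% to 65.9% in BATdKO mice. The low values in Cre- mice were 31.0% in m3 and 47.5% in m1, where Pfkm made up 60.6% and 35.8%. The other Cre- mice at 30 °C had a Pfkl share of 59.8% to 67.4%. In all 4 groups Hk2 held most of the hexokinase counts, with Hk1 at 9.74% to 15.9% in Cre- 8 °C and 7.10% to 11.7% in BATdKO 8 °C.

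**Figure D3:**
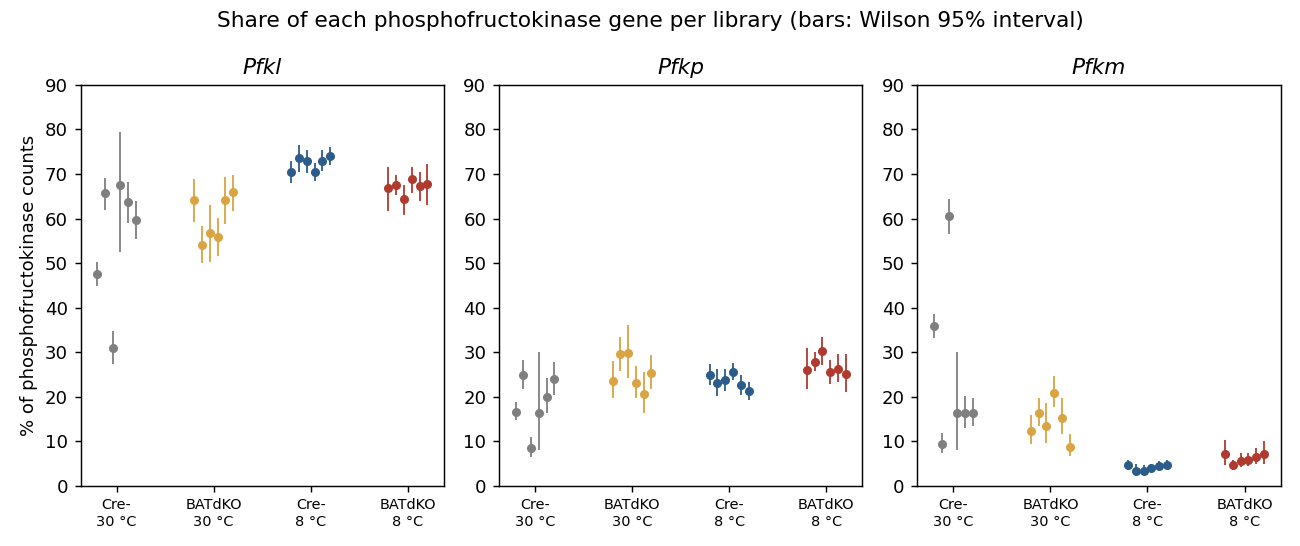
Share of the phosphofructokinase counts from Pfkl, Pfkp and Pfkm in each library, in percent, with Wilson 95% intervals as bars. At 8 °C every Cre- library lies at 70.4% or more for Pfkl and every BATdKO library at 68.8% or less.

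Pkm, which encodes the muscle and ubiquitous pyruvate kinases, rose in both genotypes, with an interaction of 0.23 (95% interval -0.25 to 0.70). Its lowest, median and highest levels were 111, 186 and 269.9 CPM in Cre- 30 °C and 302, 401 and 464 CPM in Cre- 8 °C (log2 1.05 ± 0.17, edgeR adjusted p = 0.000203). In BATdKO mice they were 105, 143 and 190.0 CPM against 201, 365 and 411 CPM (1.28 ± 0.17, adjusted p = 3.5e-05). All cold mice were above all 30 °C mice of their genotype. The genotype difference at 8 °C was -0.16 (95% interval -0.50 to 0.17). The Hk1 estimate of -0.82 lies outside this interval, but its own 95% interval was -1.16 to -0.48. The 2 genes were not tested against each other.

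Both lactate dehydrogenases rose in both genotypes, and their rises were not tested against each other. Ldha, whose product favours lactate, had 200.2, 226 and 279 CPM in Cre- 30 °C and 290.4, 323 and 401 CPM in Cre- 8 °C (log2 0.49 ± 0.09, edgeR adjusted p = 0.000679). In BATdKO mice it had 194, 215 and 230.4 CPM at 30 °C and 276, 326 and 365 CPM at 8 °C (0.59 ± 0.09, adjusted p = 0.000144). Neither pair of ranges overlapped. Ldhb, whose product favours pyruvate, went from 19.1, 37.4 and 57.4 CPM to 52.2, 72.3 and 98.8 CPM in Cre- mice (0.89 ± 0.18, adjusted p = 0.00177), with overlap, and from 24.4, 31.7 and 39.9 CPM to 50.7, 72.3 and 91.5 CPM in BATdKO mice (1.15 ± 0.18, adjusted p = 0.000161), without. At 8 °C the genotypes differed by -0.03 (95% interval -0.21 to 0.14) for Ldha and by 0.00 (-0.33 to 0.34) for Ldhb.

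**Figure D4:**
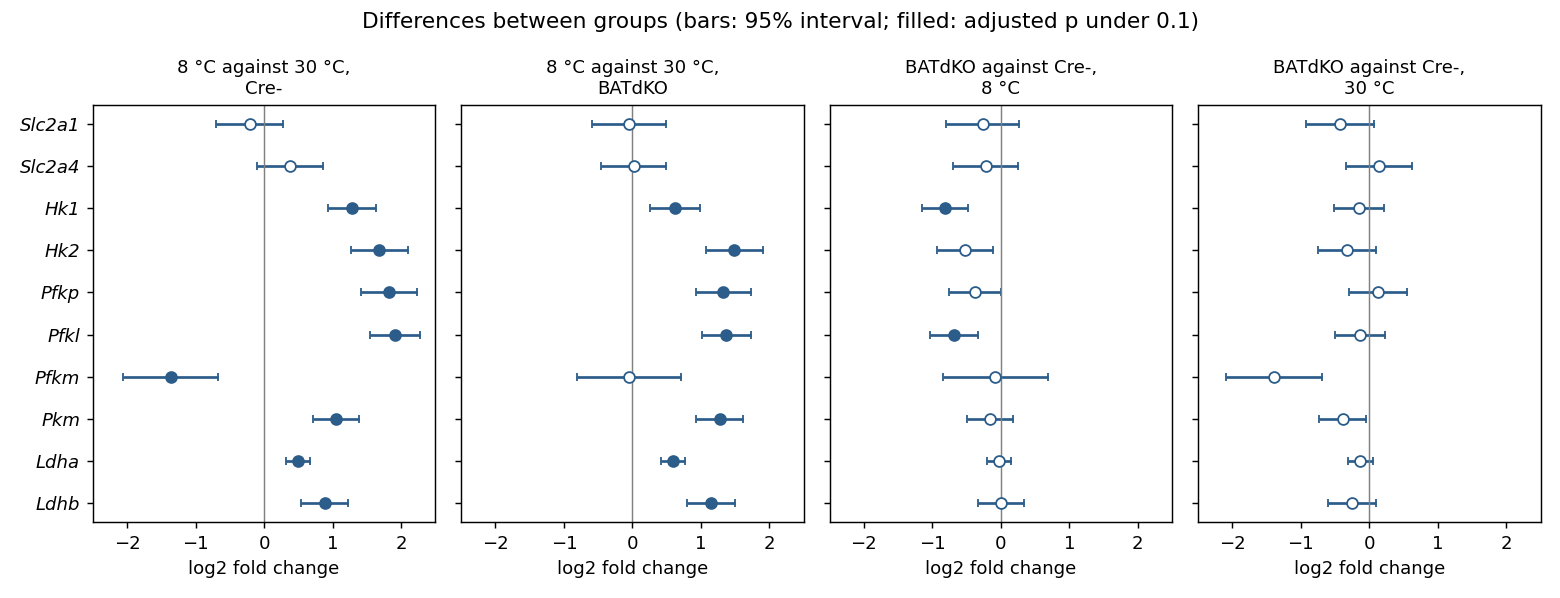
Log2 difference of each gene in the cold and genotype comparisons, with 95% intervals as bars and filled points for an adjusted p under 0.1. Hk1 and Pfkl are the filled points in the genotype comparison at 8 °C, at -0.82 and -0.68, and the comparison at 30 °C has none.

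At 30 °C no member differed between genotypes at an adjusted p under 0.1 by edgeR, and at an unadjusted p under 0.05 2 members were lower, Pfkm and Pkm, where 5.14% of all tested genes were lower at that level. DESeq2 called 1, Pfkm (adjusted p = 0.0998). Over the whole table edgeR called 0 genes, with 1303 at an unadjusted p under 0.05. Pfkm differed by -1.39 ± 0.36 (adjusted p = 0.149) and Pkm by -0.39 ± 0.17 (adjusted p = 0.42). Pfkm was called without Cre- m2 (-1.60, adjusted p = 0.0828), without Cre- m6 (-1.56, adjusted p = 0.0179) and without m6 of both genotypes (-1.53, adjusted p = 0.0193), and without both m6 and Cre- m1 and m3 it was 0.05 (adjusted p = 0.977).

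Whether the cold response itself differed between genotypes was tested by the interaction of genotype and temperature. No member passed an adjusted p under 0.1 by edgeR or by DESeq2, and 0.0961% of all genes did by edgeR. At an unadjusted p under 0.05 there were 3 members, against 8.05% of all genes. They were Hk1 (-0.67 ± 0.26, adjusted p = 0.497) and Pfkl (-0.54 ± 0.26, adjusted p = 0.607), with smaller rises in BATdKO, and Pfkm (1.31 ± 0.53, adjusted p = 0.517), whose value went to -0.04 without Cre- 30 °C m1 and m3. The smaller rise of Hk1 and Pfkl in BATdKO mice is therefore not shown to differ from that in Cre- mice at this number of mice.

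Levels of the members were also compared between libraries, as a description. Over the 45 pairs of members the median Pearson r of log2 CPM was 0.55 across the 24 libraries and 0.36 after removing group means, with 12 pairs above 0.5 within groups and a lowest value of -0.14, for Slc2a1 and Hk1. Pfkp and Pfkl had an r of 0.96 across libraries and 0.84 within groups, Slc2a4 and Hk2 had 0.58 and 0.84, and Pkm and Ldha had 0.93 and 0.70. These libraries share tissue, depth and scaling. In Cre- 8 °C, m2 was the lowest mouse in 7 of 10 members and m3 the highest in 8, and in BATdKO 8 °C, m6 was the lowest in 7. In Cre- 30 °C, m4, the library with the fewest counts, was the lowest in 6 and m1 the highest in 6. In BATdKO 30 °C, m1 was the highest in 5. Cre- 8 °C m2, BATdKO 8 °C m6 and Cre- 30 °C m4 had the highest hepatocyte marker share of their groups, 3.91%, 4.00% and 4.39%. The part of this in the members' levels was not tested beyond the covariate, under which the count of members called was the same in each comparison.

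The gene whose level was most like each member's was taken by Pearson r of log2 CPM over the 24 libraries, as a description. Pfkl was nearest to Gpi1 (r = 0.97), the isomerase between hexokinase and phosphofructokinase, and Hk1 was nearest to Gpi1 too (0.88). Pfkp was nearest to Acacb (0.96), an acetyl-CoA carboxylase, and Hk2 to the thioesterase gene Acot11 (0.95) and to Pgd (0.93) of the pentose phosphate pathway. Pkm and Ldha had Ldha (0.93) and Ier3 (0.93) as nearest, Ldhb had Pcca (0.92), Slc2a4 had Fam69b (0.91) and Pfkm had Rilpl1 (0.90). The nearest to Slc2a1 was Dynlt1a at only 0.68, at its low counts.

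The other enzymes of glycolysis and the glycerol 3-phosphate shuttle gave 8 genes up and 2 down of 18 tested in Cre- mice, and 9 up and 0 down in BATdKO mice, with a median log2 difference of 0.36 and 0.49. Over all tested genes 5.57% rose and 3.59% fell in Cre- mice and 3.76% and 3.31% in BATdKO mice, shares against which this and the following counts are to be read. Gpi1 rose by 0.90 ± 0.10 (edgeR adjusted p = 1.26e-06) and 0.65 ± 0.10 (0.000166). Aldoa, the aldolase of muscle and most tissues, rose by 0.81 ± 0.21 and 0.94 ± 0.21, Pgk1, the phosphoglycerate kinase, by 0.37 ± 0.10 and 0.59 ± 0.10, and Pgam1, the common mutase, by 0.51 ± 0.09 and 0.50 ± 0.09. Eno1 and its near-identical copy Eno1b, which may share reads, rose by 1.02 ± 0.19 and 1.05 ± 0.21 in Cre- and by 0.94 ± 0.19 and 0.97 ± 0.21 in BATdKO mice. Gpd1 and Gpd2, the cytosolic and mitochondrial glycerol 3-phosphate dehydrogenases, rose by 1.55 ± 0.22 and 1.12 ± 0.19 in Cre- and by 1.04 ± 0.21 and 1.00 ± 0.19 in BATdKO mice. The muscle forms Pgam2 (-2.65 ± 0.91, adjusted p = 0.0861) and Eno3 (-2.21 ± 0.72, adjusted p = 0.0691) fell in Cre- mice, and as for Pfkm the levels of Eno3 in m1 and m3 at 30 °C, 96.7 and 195 CPM, were far above the 1.37 to 9.52 CPM of their group's other mice, so that neither passed without them. Aldoa too was highest in m1 and m3 of its group, at 815 and 956 CPM against 283 to 462 CPM in the other 4 mice. Aldoa, Pgam2 and Eno3 are named after their values were seen.

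**Figure D5:**
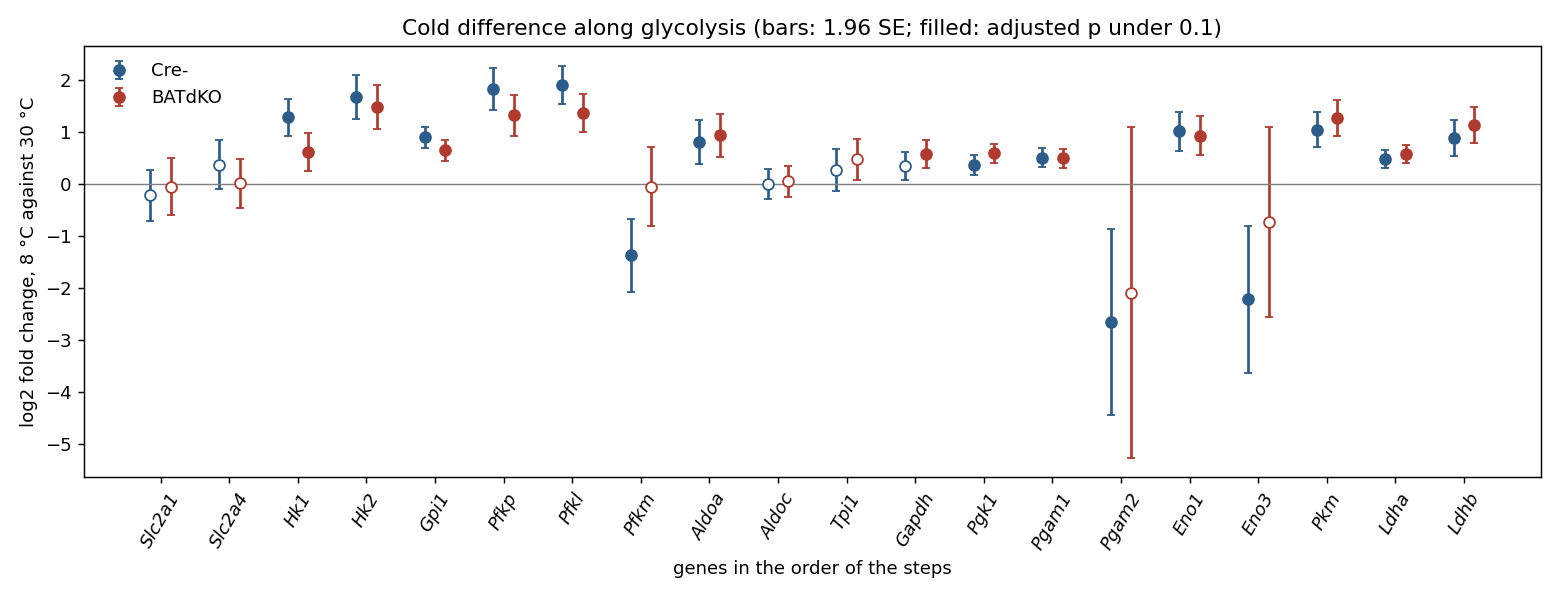
Log2 difference between 8 °C and 30 °C for the genes of uptake and glycolysis in the order of the steps, in Cre- and BATdKO mice, with 95% intervals as bars and filled points for an adjusted p under 0.1. Hk2, Pfkp and Pfkl lie highest in Cre- mice, at 1.68, 1.83 and 1.91, and the muscle forms Pfkm, Pgam2 and Eno3 lie below 0.

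Branches and controls of the pathway gave further calls. Of the 5 other transporters and hexokinases in the table, 1 rose in Cre- mice and 0 changed with cold in BATdKO mice. At 8 °C 1 was lower in BATdKO, against 1.12% of all tested genes. It was the fructose carrier Slc2a5 each time, 0.84 ± 0.21 higher in the cold in Cre- mice (edgeR adjusted p = 0.0144) and 1.35 ± 0.22 lower in BATdKO at 8 °C on the log2 scale (adjusted p = 0.000752), at 15.9 to 29.2 CPM in Cre- and 3.92 to 9.83 CPM in BATdKO mice. The Slc2a5 difference at 30 °C was -0.77 ± 0.23 (adjusted p = 0.197) and its interaction -0.58 ± 0.32 (adjusted p = 0.65). Of 5 regulators of fructose 2,6- and 1,6-bisphosphate, 2 rose in Cre- and 3 in BATdKO mice. Fbp2 and Tigar were called in both genotypes, and Pfkfb3 in BATdKO mice. At 8 °C 1 of the 5 was higher and 1 lower in BATdKO, against 0.697% and 1.12% of all tested genes. Fbp2, the muscle fructose bisphosphatase, rose by 1.76 in both and was lower in BATdKO at 8 °C (-1.74 ± 0.32, adjusted p = 0.00263), with no overlap. At 30 °C the Fbp2 difference was -1.73 ± 0.41 (adjusted p = 0.149) and its interaction was -0.0051 ± 0.51. Pfkfb3, which makes the activator of phosphofructokinase, was at 43.8 to 69.4 CPM in Cre- 8 °C and at 68.1 to 130.4 CPM in BATdKO 8 °C (0.84 ± 0.17, adjusted p = 0.00568), and rose with cold in BATdKO mice (0.76 ± 0.17, adjusted p = 0.0061) but had -0.23 ± 0.17 in Cre- mice. The Pfkfb3 ranges at 8 °C overlapped. Its interaction was 0.99 ± 0.23 (adjusted p = 0.123), and it passed the threshold under 5 of the 12 alternatives and 4 of 24 fits without 1 mouse.

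Lactate and pyruvate carriers rose in 3 of 5 genes in each genotype. They were the lactate carrier Slc16a1 (1.16 ± 0.16 in Cre- and 0.92 ± 0.16 in BATdKO mice), its chaperone Bsg (0.85 ± 0.10 and 1.13 ± 0.10) and Mpc2 of the mitochondrial pyruvate carrier (1.09 ± 0.16 and 0.99 ± 0.16). Of 13 genes of GLUT4 storage and insulin signalling, 0 rose and 1 fell in Cre- mice, and 1 rose and 1 fell in BATdKO mice. This is near the background of 5.57% up and 3.59% down in Cre- and 3.76% and 3.31% in BATdKO mice. Lnpep was the gene that fell in BATdKO mice. At 8 °C 1 of the 13 was higher in BATdKO and 0 were lower, against 0.697% and 1.12% of all tested genes. The insulin receptor substrate Irs2 was lower in the cold in Cre- mice (-0.43 ± 0.13, edgeR adjusted p = 0.0464) and higher in BATdKO mice (0.39 ± 0.13, adjusted p = 0.0798), and at 8 °C it had 14.4 to 20.2 CPM in Cre- and 28.2 to 49.2 CPM in BATdKO mice (0.99 ± 0.13, adjusted p = 5.21e-05). The Irs2 interaction was 0.82 ± 0.18 (adjusted p = 0.105), and it passed under 7 of the 12 alternatives and 8 of 24 fits without 1 mouse.

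Among 14 genes of the ChREBP and HIF1 regulators, 5 rose in Cre- and 4 in BATdKO mice, against 5.57% and 3.76% of all tested genes. Ppargc1a, a coactivator of oxidative genes, rose by 1.27 ± 0.16 and 0.95 ± 0.15, Epas1, which encodes HIF2α, by 0.52 ± 0.11 and 0.91 ± 0.11, and the prolyl hydroxylase genes Egln1 and Egln3 by 1.40 ± 0.23 and 0.93 ± 0.20 in Cre- and by 0.84 ± 0.23 and 1.29 ± 0.20 in BATdKO mice. Epas1 was higher in BATdKO at 8 °C (0.41 ± 0.11, edgeR adjusted p = 0.0706), at 78.6 to 143 CPM against 63.1 to 80.6 CPM, with overlap. Hif1a rose in Cre- mice (0.46 ± 0.10, edgeR adjusted p = 0.00669) and had 0.04 ± 0.10 in BATdKO mice. Of 8 pentose phosphate genes 3 rose in Cre- and 2 in BATdKO mice, against the same shares, with Pgd at 1.28 ± 0.16 and 0.82 ± 0.15 and Taldo1, the transaldolase, at 1.00 ± 0.12 and 0.49 ± 0.12. Rpe was the other gene called in Cre- mice. Taldo1 was also lower in BATdKO at 8 °C (-0.67 ± 0.12, adjusted p = 0.00253), at 125 to 175 CPM against 189 to 311 CPM. So was Gpi1 (-0.40 ± 0.10, adjusted p = 0.042), the only 1 of the 18 other glycolytic genes to differ there. Over all tested genes 1.12% were lower and 0.697% higher in BATdKO at 8 °C.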

How the data were processed

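RNA of mouse brown fat was made into 3′ tag libraries (QuantSeq 3′ mRNA-Seq FWD). Per the methods, the authors trimmed reads with BBDuk, aligned the forward read to GRCm38 with STAR, summed reads per gene with Rsubread and tested with DESeq2. The methods also state that outliers were taken out after quality control, and the paper's sequencing figure gives fewer mice per group. All 24 deposited libraries were used here. The deposited table holds raw counts for 12615 genes. Annotation release, strand and multi-mapping settings are not given in the sources used here. Symbols were matched for 12608 genes.

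Counts were tested with edgeR 4.0.16 in R 4.3.3 (quasi-likelihood, TMM library sizes, filterByExpr, 1 fit of all 24 libraries, Benjamini-Hochberg over 12485 genes, threshold 0.1). SE is the log2 difference over the root of F. Alternatives were DESeq2 1.42.0, other scalings, filters and dispersions, marker covariates and leaving out mice. The hepatocyte covariate, and leaving out Cre- 30 °C m1 and m3 with or without both m6, were chosen after seeing the data. Scripts were tested on simulated data. No libraries held identical counts. Members and lists were chosen with earlier results of these data known. Named genes are the members, list genes past the threshold (at most 6 per list and comparison), the genes nearest each member, and Tbl1xr1, Tbl1x and Ucp1. A result on 1 further gene is not reported here.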

Additional observations from a re-analysis of the deposited data

Results flagged for a closer look

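A single mouse stood apart from the other 5 of its group by Dixon's test in 6 of 52 groups of levels, where chance alone flags about 1 in 20. In the members these were Hk2 in Cre- 30 °C m1, at 67.1 CPM against 44.7 in the next mouse (Dixon ratio 0.743), Pfkp in Cre- 8 °C m2, at 29.9 against 45.2 CPM (0.636), and Pfkl in the same mouse, at 95.7 against 146 CPM (0.776). The remaining flags were Tbl1xr1 in Cre- 30 °C m6 at 38.6 against 24.6 CPM (0.632), Ucp1 in that mouse at 548 against 133 CPM (0.799), and Tbl1x in BATdKO 30 °C m6 at 39.7 against 53.4 CPM (0.678).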

How the results depend on the processing

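Calls of Hk2, Pfkp, Pfkl, Pkm, Ldha and Ldhb with cold, and of Hk1 with cold in Cre- mice and with genotype at 8 °C, kept direction and side of the threshold under all 13 alternatives and without each single mouse. Members called numbered 7 to 8 (cold, Cre-), 6 to 7 (cold, BATdKO), 1 to 2 (genotype, 8 °C), 0 to 1 (genotype, 30 °C) and 0 (interaction), over the alternatives and over leaving out mice alike. With only the compared groups in the fit, Hk1 with cold in BATdKO mice had an adjusted p of 0.105. At 8 °C, robust dispersions and the muscle covariate each left 1 member, Hk1, as did leaving out 8 single mice. At 30 °C, DESeq2 and leaving out both m6 each gave 1, Pfkm.

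Some differences changed sign. They were small in the fit of all 24 libraries, except for Pfkm with cold in Cre- mice (-1.36), at 30 °C (-1.39) and for the interaction (1.31). Slc2a4 with cold in BATdKO was -0.0050 with upper quartile scaling, -0.13 without both m6 and -0.13 also without Cre- 30 °C m1 and m3. Ldhb at 8 °C was -0.0045 with the compared groups only, -0.0013 without both m6, -0.036 with the muscle covariate and -0.0040 without all 4 mice. Ldha was 0.0093 at 8 °C with the muscle covariate, and without Cre- m1 and m3 it was 0.0018 at 30 °C and -0.033 for the interaction. Pfkm was 0.43 (cold, BATdKO) and 0.50 (8 °C) with the muscle covariate, 0.10 and 0.0502 with the hepatocyte covariate, -0.044 for the interaction without Cre- m1 and m3, and without all 4 mice 0.025 (cold, Cre-), 0.052 (30 °C) and -0.14 (interaction). Pfkp at 30 °C was -0.087 without all 4, and the Hk2 interaction was 0.10 with the hepatocyte covariate. Leaving out single mice, signs changed for Slc2a1 (-0.18 to 0.13), Slc2a4 (-0.13 to 0.22) and Pfkm (-0.11 to 0.023) with cold in BATdKO, for Ldha (-0.069 to 0.033), Ldhb (-0.072 to 0.11) and Pfkm (-0.20 to 0.0015) at 8 °C, and for Pfkp (-0.017 to 0.25) and Slc2a4 (-0.059 to 0.29) at 30 °C. The causes were not tested. Over all genes, calls at 8 °C numbered 227, or 477 with the compared groups only, 353 without Cre- 30 °C m1 and m3 and 470 without all 4 mice, and 87 of 227 were higher against 110 of 202 with the hepatocyte covariate. At 30 °C they numbered 0, or 90 by DESeq2, 5 with the muscle covariate, 500 without both m6 and 212 without all 4. For the interaction they numbered 12, or 51 by DESeq2, 21 with robust dispersions, 19 with the muscle covariate, 44 without both m6, 25 without Cre- m1 and m3 and 47 without all 4. Cold in Cre- mice gave 695 up and 448 down, or 608 and 609 with upper quartile scaling and 488 and 196 without m1 and m3, and cold in BATdKO mice gave 470 and 413, or 558 and 222 with the hepatocyte covariate. Without single mice, calls at 8 °C ran from 138 (without BATdKO m5) to 276. At 30 °C they ran from 0 to 369, with 67, 369, 47 and 41 without Cre- m2, Cre- m6, BATdKO m4 and BATdKO m6, and 2 and 3 without Cre- 8 °C m3 and BATdKO 8 °C m6. For the interaction they ran from 7 (without BATdKO 30 °C m2, Cre- 8 °C m5 or BATdKO 8 °C m5) to 37 (without Cre- 8 °C m2), with 35, 32 and 21 without Cre- 30 °C m1, Cre- 30 °C m6 and BATdKO 30 °C m4. Cold in BATdKO mice gave 883 calls, or 574 without BATdKO 8 °C m4. No paired analysis was possible because the mouse numbers are given here in accession order and pair nothing. Depth limits Slc2a1 most.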
